A study of Rattus norvegicus and Mus musculus with 24 samples.

Results

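The genes described here encode the proteins of the cytosolic ribosome, the particle that translates messenger RNA outside the mitochondria. Members were the symbols that begin with RPL (large subunit) or RPS (small subunit) followed by digits, optionally ending in A, X or L, together with the stalk proteins RPLP0, RPLP1 and RPLP2 and the small subunit protein RPSA. RPS6 and the S6 kinase genes were left out by this rule. It found 76 members among 17376 symbols in the mouse table (47 large subunit, 29 small subunit) and 71 among 14931 in the rat table (45 and 26), with 67 in both. Members in the mouse table only numbered 9, among them RPL10, RPL12, RPL17, RPL37A, RPS9, RPS21 and RPS25, and those in the rat table only were RPL41, RPLP0, RPS4X and RPS27A.

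Bulk RNA sequencing was performed on kidney of 4 Ctns KO and 4 Ctns WT mice (C57BL/6 background) and of 8 Ctns KO and 8 Ctns WT rats (Sprague-Dawley background), with littermates as controls and 1 library per animal, 24 in all. Ctns encodes the lysosomal cystine transporter that is lost in cystinosis, and the comparison asked how the transcriptome of kidney differs without it. The labels name kidney cortex and proximal tubule cells, and the extraction text names dissected tubules, so the starting material is not settled. The rats carry numbers 17 to 24 and 25 to 32, with 4 Ctns KO and 4 Ctns WT animals in each range. What the ranges stand for is not in the labels, nor is the age, sex or treatment of any animal.

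Libraries held 19309371 to 44449845 reads on genes in mice and 24684097 to 40629873 in rats. Ctns itself separated the mouse genotypes, with scaled values of 0.319 to 0.342 in Ctns KO and 0.824 to 1.03 in Ctns WT mice. In rats it did not, with 16.8 to 22.2 CPM (read counts scaled to a common library size) in the animals labelled Ctns KO and 19.2 to 27.8 CPM in those labelled Ctns WT, so the groups overlapped and its level does not check the label of a single rat. Its log2 change was -0.11 (adjusted p = 0.514, edgeR) in rats 17 to 24 and -0.32 (adjusted p = 0.0391, edgeR) in rats 25 to 32. Proximal tubule markers were abundant in every library. In 1 Ctns KO mouse, number 3, the summed scaled level of sex-linked genes was 0.0543, against 19.3 to 21.4 in Ctns WT mice. The highest such sum in Ctns KO mice was 22.5. Of the 6 such genes found in mice, 5 had no reads in any mouse of either genotype. The sum thus rests on a single gene and was not used to assign sex.

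Ribosomal protein genes are transcribed at high levels in nearly all cells, and their products are needed in matched amounts. Most of their mRNAs begin with a 5′ terminal oligopyrimidine (TOP) element, a C at the first base followed by a run of C and T. Through this element mTORC1, the growth-regulating kinase complex at the lysosome, controls how strongly these mRNAs are translated, a step that RNA sequencing does not measure. Some members have further roles, such as RPL5 and RPL11, which bind MDM2 and thereby stabilise p53, and RPS27L, a paralogue of RPS27 that is itself a p53 target.

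The start sequences of 8 rat members are shown because these genes recur in the results below, with and without the TOP letters at the annotated start. Each runs from 10 bases before to 15 bases from the annotated first base on, 5′ to 3′ in the gene's direction, from RefSeq on GRCr8. Capitals mark a run that begins with C at the annotated first base and goes on with at least 4 further C or T.
RPLP0, chr12:46718376-46718400, minus strand: caccgcacttCTCTCgccaggcgtc
RPLP1, chr8:71290858-71290882, minus strand: cgcatgtgatCCTTTCCTCagctgc
RPL22, chr5:168117951-168117975, plus strand: gcgcccccctCCCTTTCTgcctcct
RPS15, chr7:10068101-10068125, minus strand: acaccgcttcCTTTTCCCagcagcc
RPS18, chr20:4933735-4933759, plus strand: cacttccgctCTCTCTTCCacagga
RPS2, chr10:14251838-14251862, plus strand: tctttttcttcgggaaaacacgtga
RPS16, chr1:92770648-92770672, plus strand: aaaatcggtcggggtggccccaagc
RPS27L, chr8:76443648-76443672, plus strand: ttcatttgtcattatttgtggtgtc
The first 5 carry the run and the last 3 do not. Of 71 rat members, 57 were found in the RefSeq table, with 58 start sequences. The run stood at the annotated first base of 21 of them (36.2%), against 2.63% of all 33469 start sequences. Searched on the same strand at any start within 10 bases either side, the letters were in 41 (70.7%) and in 28.9% of all, so several annotated starts lie close to such a run without falling on it.

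Together the members took 1.20% to 2.27% of the reads on genes, a share that covers the genes listed and not the whole ribosome. In mice the share was 1.66%, 1.79%, 1.61% and 1.67% in Ctns KO animals 3, 5, 6 and 8, and 1.76%, 1.53%, 1.52% and 1.51% in Ctns WT animals 1, 2, 4 and 7. These groups overlapped, since Ctns WT mouse 1 lay above all but 1 Ctns KO mouse. In rats 17 to 24 it was 1.63%, 1.73%, 1.53% and 1.598% in Ctns KO animals 18, 20, 22 and 24, and 1.63%, 1.54%, 1.58% and 1.42% in Ctns WT animals 17, 19, 21 and 23, and the groups again overlapped. In rats 25 to 32 the share was 1.93%, 2.27%, 1.96% and 2.26% in Ctns KO animals 26, 28, 30 and 32. Ctns WT animals 25, 27, 29 and 31 of that range had 1.44%, 1.20%, 1.41% and 1.58%. Only in this range did every Ctns KO animal lie above every Ctns WT animal, and the means were 2.11% ± 0.188 (SD, n = 4) and 1.41% ± 0.158 (SD, n = 4). Both subunits followed the total, with 1.23% to 1.43% against 0.777% to 1.02% of reads on large subunit members and 0.694% to 0.845% against 0.418% to 0.553% on small subunit members. No test was made on these sums.

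**Figure D1:**
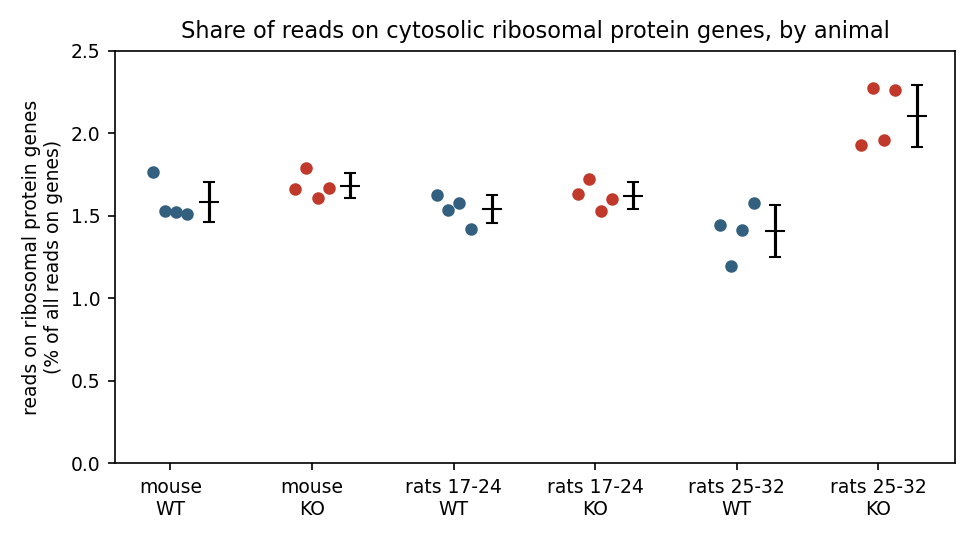
Reads on cytosolic ribosomal protein genes as a percentage of all reads on genes (y axis) for each animal (points) by species, rat number range and genotype (x axis); the bar beside the points gives the mean and SD of 4 animals. The Ctns KO rats 25 to 32 lie between 1.93% and 2.27%, above the 1.20% to 1.58% of the Ctns WT rats of that range.

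The members differed widely in the reads they received. In rats RPSA led with 6.13% of all member reads, followed by RPLP0 (5.76%), RPL7 (5.06%) and RPS2 (4.84%); in mice RPL4 (3.98%) and RPS2 (3.61%) led. At the other end, 19 of the 71 rat members had a Ctns WT mean under 10 CPM, among them RPL8, RPL37, RPL39 and RPS28, and RPL26 and RPL7A had no reads in any rat. In mice 72 of 76 members averaged at least 100 reads, and RPL3L, RPL10L, RPL24 and RPL39L did not. RPL3L and RPL10L are known as paralogues of restricted tissue expression, whereas RPL24 is a general ribosomal protein. Ribosomal protein genes have many processed pseudogenes whose reads can be split or dropped in counting, and how the counting treated them was not tested. Values that were not whole reads occurred for 12 mouse and 25 rat members, and RPL36A had the same counts as RPL36AL in every rat, so these levels are uncertain to that extent.

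Among Ctns WT animals the levels of a member varied most in rats 25 to 32. Over members with at least 100 reads in every animal of a group, the median coefficient of variation was 8.70% in mice (72 members), 7.72% in rats 17 to 24 and 14.0% in rats 25 to 32 (54 members each). RPL13A, for one, ran from 405 CPM in Ctns WT rat 27 to 576 CPM in Ctns WT rat 31. The summed share ran from 1.20% to 1.58% between the same 2 rats. Over all members, RPL15 and RPS2 varied least in mice, RPL18 and RPS3 in rats 17 to 24, and RPL8 and RPL38 in rats 25 to 32, the last at no more than 9 reads. The most variable were members with few reads, RPL3L and RPL24 in mice, RPL10A and RPS27 in rats 17 to 24, and RPS19 and RPL39L in rats 25 to 32.

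In mice no ribosomal protein gene passed the test between Ctns KO and Ctns WT. The limma test on log2(value + 1) called 0 of 76 members at an adjusted p under 0.05, where it called 4.32% of all symbols (3.5% higher, 0.817% lower), and 7 members had an unadjusted p under that value. edgeR and DESeq2 on the recovered reads called 0 as well. The median log2 change of the members was 0.01, beside 0.00 over all symbols, and the range was -0.11 to 0.15.

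RPL15, a large subunit protein, and RPS2, a small subunit protein, were the only members whose mouse groups did not overlap, both higher in Ctns KO, where 7.66% of all symbols were higher and 3.92% lower without overlap. RPL15 had scaled values of 3.303, 3.55, 3.34 and 3.32 in Ctns KO mice 3, 5, 6 and 8, and 3.16, 3.08, 3.001 and 2.96 in Ctns WT mice 1, 2, 4 and 7. Its log2 change was 0.11 (SE 0.03, limma adjusted p = 0.0698). RPS2 had 11.9, 13.6, 13.05 and 13.02 in Ctns KO and 11.8, 11.9, 11.3 and 11.1 in Ctns WT mice, the lowest Ctns KO value just above the highest Ctns WT value, and a log2 change of 0.15 (SE 0.05, limma adjusted p = 0.141). In the count test, which adds no constant to the values, 73 members were tested with changes between -0.20 and 0.15 and 2 had an unadjusted p under 0.05. The 95% interval of 72 of them lay wholly below 0.43, the median log2 change seen in rats 25 to 32. That median is itself an estimate, from 0.35 to 0.50 with 1 rat left out, so this is no test between the species.

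In rats 17 to 24 RPS27L was the only member that passed the test between the genotypes. edgeR's quasi-likelihood test called 1 of 63 members higher and 0 lower, with 4 at an unadjusted p under 0.05, where 7.26% of all symbols tested were called (5.07% higher, 2.19% lower). The median log2 change was 0.07, beside 0.00 over all symbols, and 55 of the 63 had a 95% interval wholly below 0.43. This is no test between the ranges, which is given below as the interaction. The changes ran from -0.57 to 0.88, the widest at members with few reads such as RPL10A (0.88) and RPS28 (0.62). RPS27L was 51.1, 54.0, 48.6 and 51.3 CPM in Ctns KO rats 18, 20, 22 and 24, and 48.0, 45.1, 42.2 and 39.6 CPM in Ctns WT rats 17, 19, 21 and 23. All 4 Ctns KO rats lay above the Ctns WT rats, which also held for RPS2 (log2 change 0.14, adjusted p = 0.188, edgeR) and for 7.85% of all symbols, with 5.87% lower without overlap. The log2 change was 0.24 (adjusted p = 0.0443, edgeR), and the call was lost without any one of Ctns KO rats 18, 20, 22 and 24 and Ctns WT rats 19, 21 and 23. RPS12, a small subunit protein at 6.72 to 14.5 CPM in these rats, was -0.57 on the log2 scale in this range (adjusted p = 0.0713, edgeR).

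In rats 25 to 32 most ribosomal protein genes were higher in Ctns KO. The test called 46 of 63 members higher and 0 lower, where it called 43.8% of all symbols (21.8% higher, 22.1% lower). Of the large subunit members 28 of 39 rose, and of the small subunit members 18 of 24. The median log2 change was 0.43, beside -0.01 over all symbols. In 32 members every Ctns KO rat lay above every Ctns WT rat and in 0 below, where 20.4% of all symbols were higher and 19.9% lower without overlap. Among the members with a Ctns WT mean of at least 10 CPM the rise was called for 45 of 52, and among the 11 tested below that level for 1, RPL39. These counts leave out RPL26, RPL35A, RPL38, RPL39L, RPL3L, RPL7A, RPS19 and RPS26, which had too few reads to be tested. Of the members without fractional reads, 33 of 40 were called.

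**Figure D2:**
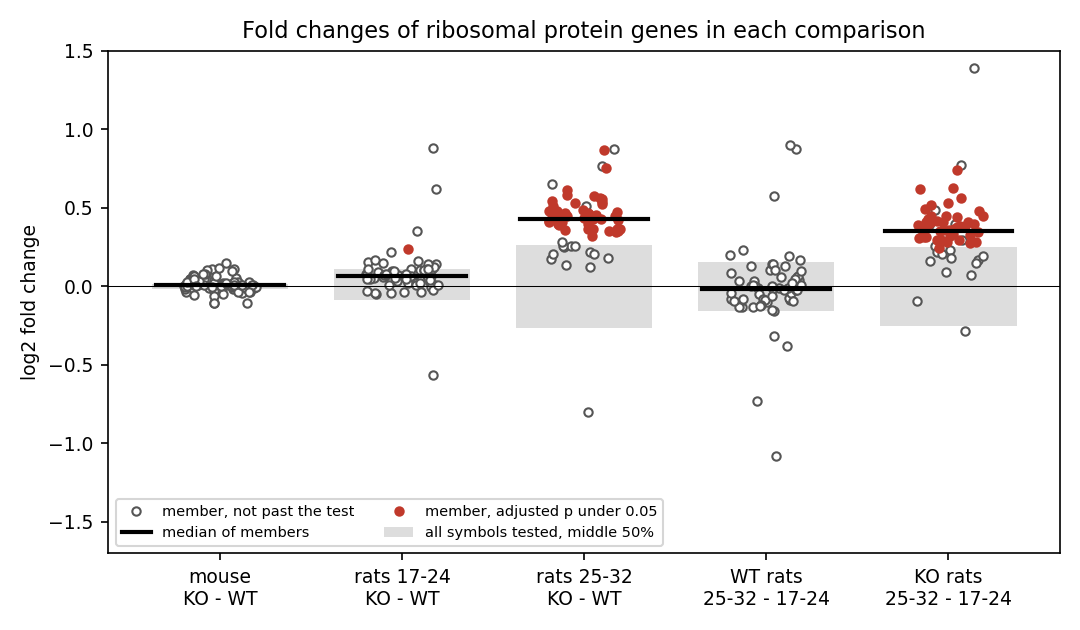
Log2 fold change of each ribosomal protein gene (points; y axis) in 5 comparisons (x axis), filled where the adjusted p was under 0.05; the black line is the median of the members and the grey box the middle 50% of all symbols tested. The members lie around a median of 0.43 in rats 25 to 32 and 0.35 between the Ctns KO rats of the 2 ranges, and around -0.02 between the Ctns WT rats; RPL39L in WT rats (-4.62) and RPL10L in KO rats (-2.09) lie below the axis.

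The stalk proteins RPLP0, RPLP1 and RPLP2 form the lateral arm of the large subunit that recruits translation factors. RPLP0 was 1146, 1492, 1165 and 1450.2 CPM in Ctns KO rats 26, 28, 30 and 32, and 885, 755, 916 and 1023 CPM in Ctns WT rats 25, 27, 29 and 31. The lowest Ctns KO value lay above the highest Ctns WT value, and the log2 change was 0.55 (SE 0.11, adjusted p = 0.00285, edgeR). RPLP1 and RPLP2 rose by 0.45 (adjusted p = 0.0059, edgeR) and 0.44 (adjusted p = 0.00385, edgeR). These 3 genes in rats 17 to 24 had log2 changes of 0.12, 0.01 and 0.04, none past the test.

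Among the remaining large subunit members RPL13 rose by 0.54 on the log2 scale at 9.56 to 19.96 CPM with overlapping groups (adjusted p = 0.0131, edgeR). RPL22, a large subunit protein that also binds other RNAs, was 75.5, 85.0, 72.4 and 86.3 CPM in Ctns KO and 56.2, 43.5, 56.3 and 68.1 CPM in Ctns WT rats of this range. It rose by 0.51 without overlap (adjusted p = 0.00563, edgeR). RPL7, the third most abundant member, had a log2 change of 0.12 and was not called (adjusted p = 0.35, edgeR).

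Small subunit members made up the largest changes that were called. RPS27L was 80.7, 93.6, 75.9 and 92.8 CPM in Ctns KO rats 26, 28, 30 and 32, and 45.9, 41.8, 46.9 and 53.2 CPM in Ctns WT rats 25, 27, 29 and 31. No Ctns KO rat came near a Ctns WT rat, and the log2 change was 0.87 (SE 0.09, adjusted p = 4.51e-05, edgeR). RPS16, a protein of the decoding side of the subunit, was 550, 680, 485 and 677 CPM in Ctns KO and 349, 303, 356 and 413 CPM in Ctns WT rats, a log2 change of 0.75 (SE 0.12, adjusted p = 0.000715, edgeR). RPS15A, RPS24 and RPS2 followed with 0.61, 0.58 and 0.57 on the log2 scale, each with groups that did not overlap. The nominally large changes of RPS28 (0.88, adjusted p = 0.107, edgeR), RPS27 (0.65) and RPL10A (0.77) did not pass the test, and these genes had few reads.

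**Figure D3:**
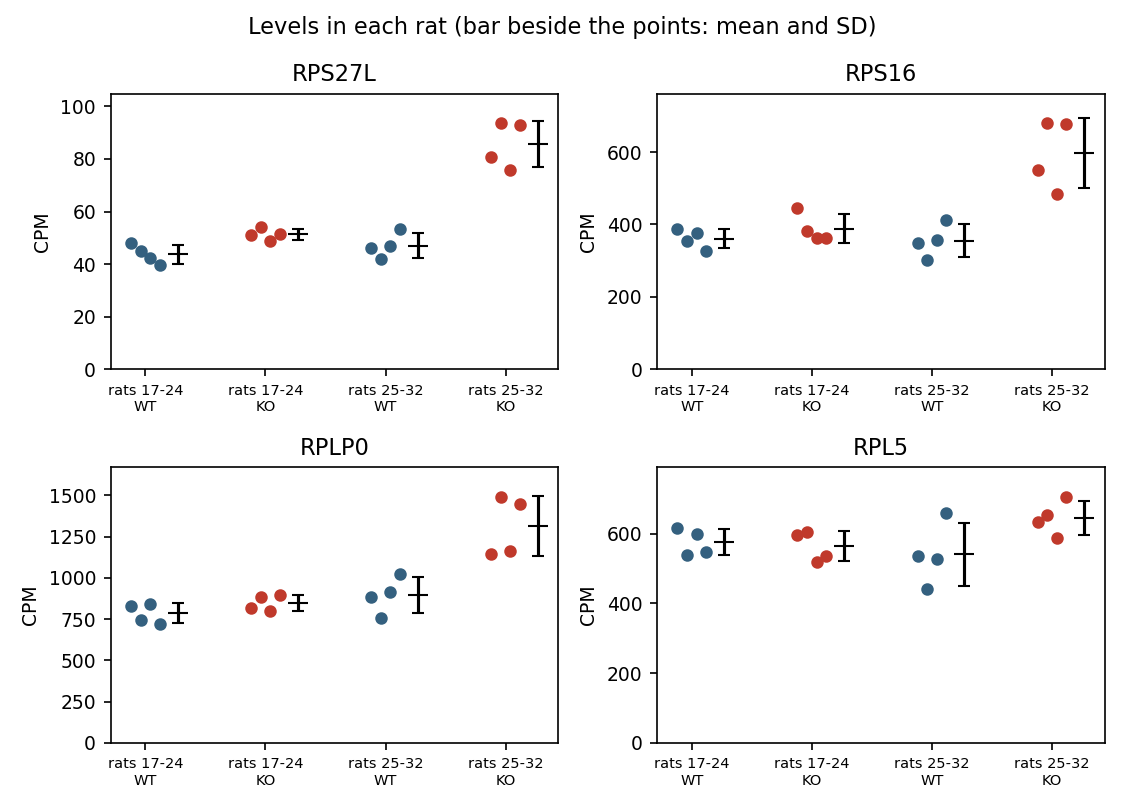
Level in CPM (y axis, from 0) of RPS27L, RPS16, RPLP0 and RPL5 in each rat (points) by number range and genotype (x axis), with the mean and SD of 4 rats beside the points. RPS27L, RPS16 and RPLP0 separate by genotype in rats 25 to 32, where the Ctns KO values of RPS27L run from 75.9 to 93.6 CPM, while RPL5 overlaps in both ranges.

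RPL5 and RPL11, which join the 5S RNA before they enter the large subunit, had one member on each side of the threshold. RPL5 was 635, 653, 587 and 707 CPM in Ctns KO and 535, 442, 527 and 660 CPM in Ctns WT rats 25 to 32, and the groups overlapped (log2 change 0.26, adjusted p = 0.0812, edgeR). RPL11 was 356, 413, 334 and 425 CPM against 287, 237, 294 and 342 CPM and rose by 0.40 (adjusted p = 0.0158, edgeR), also with an overlap. Whether the change of one differed from that of the other was not tested. Of 3 members often used as reference transcripts, RPLP0 and RPL13A (log2 change 0.48, adjusted p = 0.00323, edgeR) rose in this range, whereas RPS18 stood at 0.28 (adjusted p = 0.0501, edgeR).

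The paralogues that the name rule admits were at low levels in rats, apart from RPS27L. RPL10L was 0.653, 1.33, 0.00 and 0.769 CPM in Ctns KO and 1.82, 1.81, 0.527 and 0.445 CPM in Ctns WT rats 25 to 32 (log2 change -0.80, adjusted p = 0.384, edgeR). RPL3L did not exceed 0.149 CPM in any rat and RPL39L not 0.528 CPM, and both had too few reads to be tested in this range.

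The same animals lay at the ends for nearly all members. Ctns WT rat 27 was the lowest Ctns WT rat for 45 of the 46 members called and rat 31 the highest for 44. Ctns KO rats 32 and 28 were the highest for 31 and 15. With any one rat of the range left out, 39 to 50 members were called higher and 0 lower, and 39 to 46 of the original 46 were among them. Over all symbols 2145 to 2540 were higher in these fits.

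Over all 16 rats, which joins both ranges, 20 of 63 members were called higher and 0 lower, where 27.5% of all symbols were called (15.2% higher, 12.3% lower). The median log2 change was 0.25, beside -0.02 over all symbols, and no member was free of overlap between the 8 Ctns KO and 8 Ctns WT rats, as were 3.89% of all symbols (higher) and 1.95% (lower). RPS27L rose by 0.59 (adjusted p = 0.00465, edgeR) and RPS16 by 0.46 (adjusted p = 0.0157, edgeR), and RPLP0 stood at 0.36 (adjusted p = 0.0513, edgeR). Adding the range to the fit gave 33, with 2285 symbols higher in place of 1760. The count of members fell to 12, 9, 11 and 13 without Ctns KO rat 26, 28, 30 or 32. Over all symbols 1529, 1481, 1458 and 1723 were higher there. It fell to 12, 10 and 10 members without Ctns WT rat 19, 23 or 27, with 1741, 1630 and 1555 symbols higher. At the lowest of these counts the share of members was close to that of all symbols. The count of members rose to 38 and 34 without Ctns KO rat 22 or 24 and to 35 without Ctns WT rat 31. Over all symbols 1895, 1813 and 1805 were higher there.

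A change called in one range and not in the other was tested as the interaction of genotype and range. This test called 16 of 64 members, all with a larger Ctns KO effect in rats 25 to 32, and 0 in the other direction, where 14.7% of all symbols were called (7.1% higher, 7.64% lower). The median difference was 0.38 on the log2 scale, beside -0.01 over all symbols. Without adjustment for the number of symbols, 44 of the 64 members had an interval wholly above 0. How many of all symbols had such an interval was not determined. Among the 16 were RPL3, RPL13A, RPL15, RPL27A, RPLP0, RPLP1, RPLP2, RPS2, RPS3, RPS10, RPS14, RPS15, RPS16 and RPS27L. All 16 were among the 46 called in rats 25 to 32, and 15 had whole reads throughout.

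Among the members called, the largest differences between the ranges were those of RPS16 (0.64, SE 0.16, adjusted p = 0.0131, edgeR) and RPS27L (0.63, SE 0.12, adjusted p = 0.00268, edgeR). RPL39L (4.52, near 0 reads), RPS12 (0.77) and RPL10L (-1.01) had larger ones that were not called. RPL5, RPL11 and RPL22 had differences of 0.28, 0.36 and 0.37 that were not called. The count of 16 depended on single rats. It was 4, 6, 3 and 8 without Ctns KO rat 22, 24, 28 or 32. Over all symbols 562, 665, 487 and 687 were higher there, in place of 841. It was 5, 7 and 7 without Ctns WT rat 17, 21 or 27, with 601, 657 and 561 symbols higher. It was 27 without Ctns KO rat 30 and 43 without Ctns WT rat 31, with 1004 and 1025 symbols higher. At the lowest count the share of members was close to that of all symbols. The median difference stayed between 0.28 and 0.46 in all 16 of these fits.

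**Figure D4:**
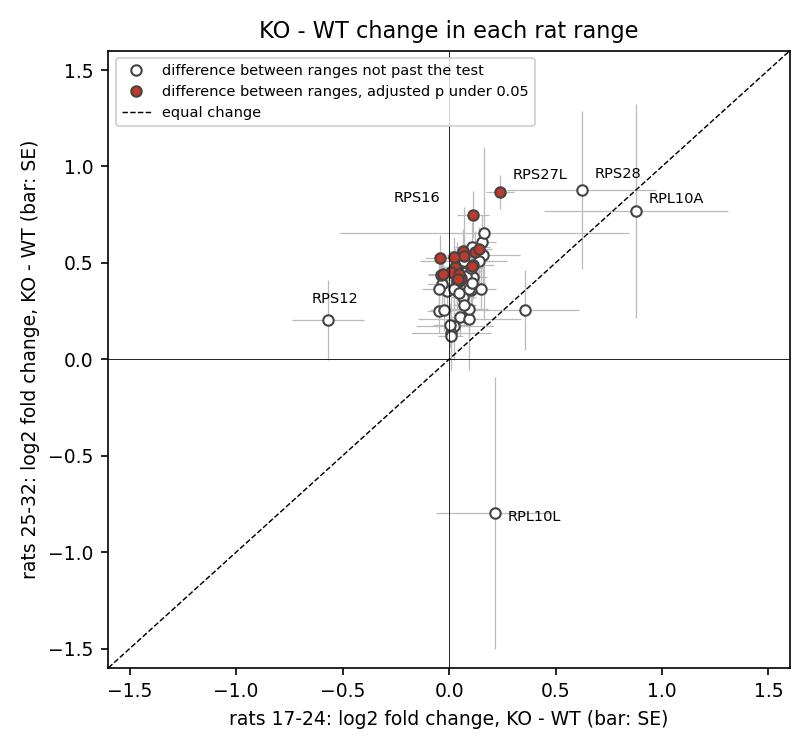
Log2 fold change between Ctns KO and Ctns WT in rats 17 to 24 (x axis) and rats 25 to 32 (y axis) for each of 63 ribosomal protein genes (points, bars give the SE), filled where the difference between ranges had an adjusted p under 0.05; the dashed line marks equal change. Most points lie above the line, near 0.07 on the x axis and 0.43 on the y axis, and RPL10L lies farthest below it.

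Compared within one genotype, the ranges differed in Ctns KO rats. Between the Ctns KO rats 25 to 32 and the Ctns KO rats 17 to 24, 43 of 64 members were higher and 1 lower, where 47% of all symbols were called (24.2% higher, 22.8% lower), with a median log2 difference of 0.35 beside 0.01 over all symbols. Of the members 44 were higher and 1 lower without overlap, against 22.2% and 19.9% of all symbols. In the same contrast mitochondrial ribosomal protein genes were higher in 41 of 71 (median 0.22), macrophage markers in 11 of 12 (median 0.90) and lymphocyte markers in 8 of 10, and podocyte and endothelial markers were lower in 9 of 11. The part of these in the difference was not tested. RPLP0 differed by 0.63, RPS27L by 0.74 and RPS16 by 0.62, and the member called lower was RPL10L (-2.09, adjusted p = 0.00806, edgeR). Between the Ctns WT rats of the 2 ranges 0 members were higher and 1 was lower, where 21.1% of all symbols were called (11.7% higher, 9.43% lower). That member was RPL39L, at 0.0922 to 0.523 CPM in rats 17 to 24 and 0.00 to 0.0371 CPM in rats 25 to 32 (adjusted p = 0.0146, edgeR), also the only one without overlap, where 12.4% of all symbols were higher and 9.86% lower without it, and 6 had an unadjusted p under 0.05. The median there was -0.02, beside 0.01 over all symbols. Mitochondrial ribosomal protein genes were higher there in 12 of 71, macrophage markers in 5 of 12 and lymphocyte markers in 4 of 10. Podocyte and endothelial markers were lower in 7 of 11. Proximal tubule markers were higher in 10 of 17 and lower in 1. Distal nephron and collecting duct markers were lower in 8 of 9 and higher in 1. Several of these lists thus differed between the ranges in Ctns WT rats too. These comparisons share animals with the Ctns KO against Ctns WT comparisons, and what else differs between the ranges cannot be told apart from them.

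The members were also split by the TOP run at the annotated start, with no test. In rats 25 to 32 the rise was called for 13 of 19 tested members with it (median log2 change 0.45) and for 25 of 31 with a start sequence that lacked it (median 0.42). The medians in rats 17 to 24 were 0.07 and 0.06. Of the 13 tested members without a start sequence 8 rose. Of the 8 sequences shown, all belong to members that rose except RPS18, and those of RPS2, RPS16 and RPS27L lack the run while those of RPLP0, RPLP1, RPL22 and RPS15 have it.

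Other genes of the ribosome and of translation were read against the 21.8% of all symbols higher and 22.1% lower in rats 25 to 32. Of 7 ribosomal protein genes outside the rule 4 rose and 0 fell, among them RPS6 (0.59, at 1.26 to 2.33 CPM), RPL22L1 and RPL36AL. Of 18 other genes with TOP mRNAs 6 rose and 1 fell (median 0.17), led by the elongation factor EEF1G (0.47) and the histone chaperone NAP1L1 (0.41), with EIF3A lower (-0.19). Of 28 further translation factors 4 rose and 4 fell (median 0.02), including EIF4A1 higher (0.30) and EIF4G1 lower (-0.52). Of 71 mitochondrial ribosomal protein genes 3 rose and 4 fell (median 0.05), and the lists were not tested against each other.

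Of 47 genes of rRNA synthesis and ribosome assembly 9 rose and 4 fell (median 0.11), no more than the shares over all symbols. MYC, a transcription factor that drives ribosome production, was 24.1 to 28.3 CPM in Ctns KO and 4.54 to 6.52 CPM in Ctns WT rats 25 to 32 (log2 change 2.27, adjusted p = 6.37e-07, edgeR). It was 11.9 to 18.1 against 3.54 to 6.78 CPM in rats 17 to 24 (log2 change 1.41, adjusted p = 0.00142, edgeR). Whether MYC had a part in the change of the members was not tested. The nucleolar proteins FBL and NPM1 rose by 0.38 and 0.33 in rats 25 to 32, and POLR1B, a subunit of RNA polymerase I, fell by 0.39. Of 7 genes that control TOP translation under mTORC1, EIF4EBP1, a repressor of cap-dependent translation, rose by 1.08, while MTOR fell by 0.51 and EIF4EBP3 by 0.62.

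Of 8 genes tied to MDM2 and p53, 4 rose and 2 fell in rats 25 to 32, where 43.8% of all symbols were called. CDKN1A, the cell cycle inhibitor p21 and a p53 target, was 84.4 to 111 CPM in Ctns KO and 5.24 to 6.82 CPM in Ctns WT rats, a log2 change of 3.95 (adjusted p = 4.6e-08, edgeR). CCNG1, BAX and MDM2 rose by 0.77, 0.64 and 0.58, and SESN2 and SESN1 fell by 0.57 and 0.44. CDKN1A in rats 17 to 24 rose by 1.78 and CCNG1 by 0.40 while SESN2 fell by 0.27, and in mice CDKN1A, CCNG1 and BAX rose and 0 of 8 fell. RPS27L, called in both rat ranges, had a log2 change of 0.10 in mice (limma adjusted p = 0.24).

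**Figure D5:**
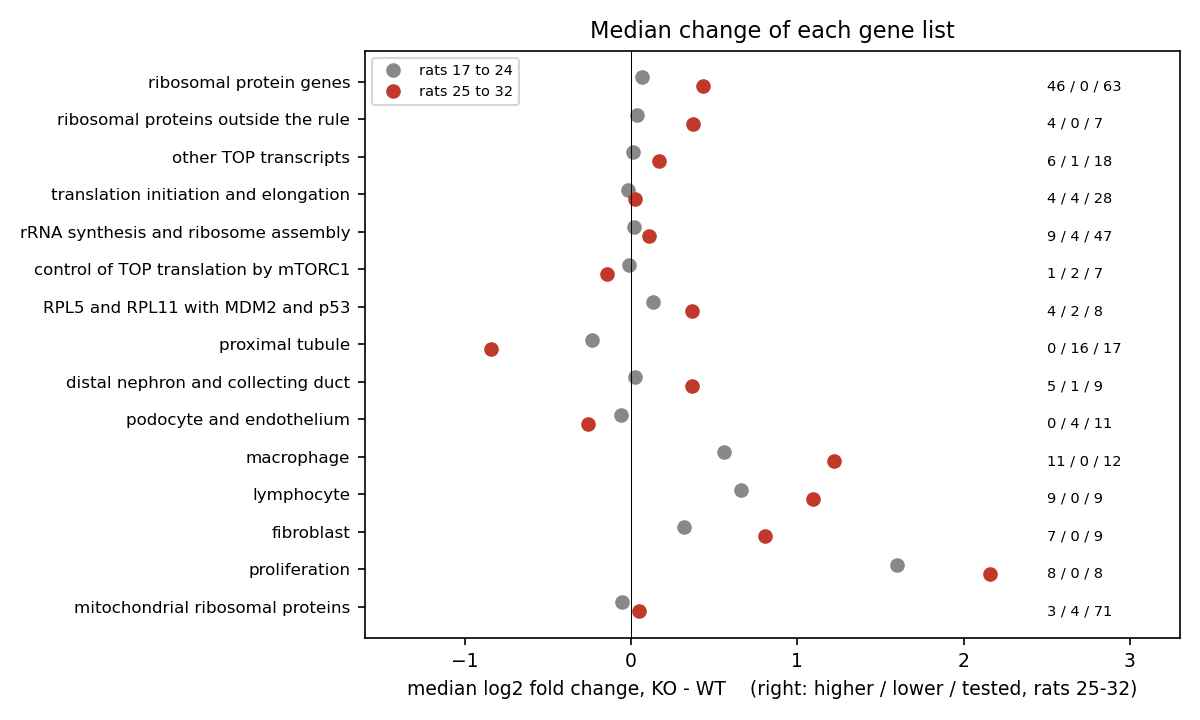
Median log2 fold change between Ctns KO and Ctns WT (x axis) of the ribosomal protein genes and of 14 other gene lists (y axis) in rats 17 to 24 (grey) and rats 25 to 32 (red); the numbers at the right give genes higher, lower and tested in rats 25 to 32. The ribosomal protein genes lie at 0.43 with 46 of 63 higher, the proximal tubule markers at -0.84 and the proliferation markers at 2.16.

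Markers of several cell types moved with the members in rats 25 to 32, against 21.8% of all symbols higher and 22.1% lower. Of 17 proximal tubule markers 0 rose and 16 fell (median -0.84), and their summed level was 22417 to 28183 CPM in Ctns KO and 43367 to 49660 CPM in Ctns WT rats. That sum in rats 17 to 24 was 26914 to 29162 CPM in Ctns KO and 31758 to 36629 CPM in Ctns WT rats. While the Ctns KO sums of the ranges overlapped, the Ctns WT sums lay higher in rats 25 to 32. Macrophage markers rose in 11 of 12 (summed 445 to 637 against 217 to 279 CPM), lymphocyte markers in 9 of 9 (86.9 to 107 against 50.5 to 60.8 CPM) and fibroblast markers in 7 of 9 (569.6 to 632 against 304 to 359.95 CPM). Distal nephron and collecting duct markers rose in 5 of 9 and fell in 1 (5196 to 6182 against 3987 to 4706 CPM), and podocyte and endothelial markers fell in 4 of 11 and rose in 0 (917 to 1023 against 1105 to 1209 CPM). The distal sum in rats 17 to 24 was 5283 to 5849 CPM in Ctns KO and 5078 to 5887 CPM in Ctns WT rats. The Ctns WT distal sum was thus lower in rats 25 to 32. Proliferation markers rose in 8 of 8 (191 to 199 against 85.2 to 88.9 CPM). In these 7 lists 1 distal marker was at 0 in the Ctns WT rats of this range and no other marker was at 0 in either group.

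In rats 17 to 24, where 1 member was called, macrophage markers rose in 9 of 12, lymphocyte markers in 7 of 9 and proliferation markers in 7 of 8, while 4 of 17 proximal tubule markers fell. Over all symbols 5.07% were higher and 2.19% lower in this range. The proximal tubule sums of this range given above did not overlap between the genotypes. In mice macrophage markers rose in 9 of 14 and proliferation markers in 11 of 12, where 4.32% of all symbols were called. Of 20 proximal tubule markers in mice 0 passed the test (median -0.23 on the log2(value + 1) scale), while their summed scaled level was 620.001 to 699 in Ctns KO and 740.2 to 933 in Ctns WT mice, without overlap. The part of the cell makeup in the rise of the members was not tested, and in bulk samples fewer cells of a type cannot be told apart from less RNA per cell.

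The Ctns KO effect on the members was also compared between the species, with rat reads put on the mouse scale. The limma interaction called 0 of 64 members, where it called 3.96% of all symbols (2.02% higher, 1.94% lower), with 10 at an unadjusted p under 0.05, and edgeR on the reads called 0. The median difference, rat minus mouse, was 0.16, beside 0.00 over all symbols, and 0.25 with edgeR on the reads. RPL27A had the largest difference, 0.34, with a 95% interval from 0.06 to 0.62 (limma adjusted p = 0.174). For RPS27L it was 0.23, with an interval from -0.04 to 0.49 (limma adjusted p = 0.353). A difference between species was therefore not shown for any single member, and this test joined both rat ranges.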

How the data were processed

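Libraries were stranded mRNA preparations (TruSeq) sequenced as paired reads. The submitters' processing notes list bcl2fastq 2.20, STAR 2.7.3, DESeq2 1.24.0 and R 3.6.1 and the builds mm10 and rn5. The counting, its annotation and its handling of reads with several matches are not given in the sources used here. For the mouse the authors deposited a scaled signal, found from the values to be reads plus 0.5 over the library's 75th percentile plus 0.5. The rat table that the authors deposited holds estimated counts, found to be reads with a constant added, which was taken off before rounding to whole numbers. Within 0.01, 99.0% of mouse and 97.7% of rat values were whole reads.

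Mouse values were tested with limma 3.58.1 (trend, robust) on log2(value + 1) with no filter, a scale that understates changes of low genes. Rat reads were tested with edgeR 4.0.16 (quasi-likelihood, robust, TMM, its filter on low counts), in all rats, in each range, and in a 4-group fit for the interaction and the range contrasts. R 4.3.3 was used. Tests were two-sided, fitted over all symbols, with Benjamini-Hochberg adjustment and a threshold of 0.05. Intervals were not adjusted for the number of symbols. Counts of members by interval or by unadjusted p are given without the matching share over all symbols. Rat levels are CPM on the TMM effective library size. P-values measure the spread between the animals, and depth covers counting error only. Fits were tested on simulated data, with planted changes larger than most of those of the members and genes drawn independently. Changes of the members' size were not covered by this. Alternatives were other scalings, filters, pseudocounts and DESeq2 1.42.0, and leaving out each animal.

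The members and all gene lists were chosen with earlier results of these data known, so no count here is independent support for a pattern already seen. Members were named if past the threshold (at most the 8 largest in a direction), or as paralogues, MDM2 binders (RPL5, RPL11), reference transcripts (RPLP0, RPL13A, RPS18) or RPL22, or for the least or most variation in Ctns WT animals. From other lists at most the 4 largest changes in a direction were named. RPL7, RPS12, RPS27, RPS28, RPL10A and the mouse members outside this rule were named after their values were seen, as were the start sequences shown. Some members and list genes that this rule would name are not reported here.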

Additional observations from a re-analysis of the deposited data

Results flagged for a closer look

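The Ctns KO effect differed between the rat ranges for 16 members by edgeR's interaction test, each larger in rats 25 to 32. The differences on the log2 scale included 0.64 for RPS16, 0.63 for RPS27L, 0.57 for RPS14, 0.48 for RPS10, 0.47 for RPS15, 0.47 for RPL27A, 0.45 for RPL13A, 0.45 for RPLP1, 0.44 for RPLP0, 0.44 for RPS2, 0.40 for RPLP2, 0.38 for RPL15, 0.38 for RPS3 and 0.36 for RPL3.

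Single animals lay far from the other 3 of their group in 7 of 134 groups tested, by the gap to the nearest animal over the range of the group, and chance alone gives such a gap in about 1 of 20 groups. Ctns WT mouse 1 had the highest share of reads on the members (1.76%) and the highest scaled values of RPL11 (6.68), RPL13A (9.57) and RPL27A (5.19) among Ctns WT mice. Ctns KO mouse 5 had the highest RPL28 value (5.57). Ctns KO rat 22 had the lowest RPL6 level in its range (245 CPM), and Ctns WT rat 27 the lowest RPS15 level in its range (239.5 CPM).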

How the results depend on the processing

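Members called higher in rats 25 to 32 numbered 46 to 51 with other scalings, without a filter and with DESeq2, and all 46 remained called with DESeq2. Over all rats the 20 called higher became 40 with upper quartile factors and 33 with the range as a term of the fit, and 9 to 38 with 1 rat left out. The 16 of the interaction became 28 with upper quartile factors, and 3 to 43 with 1 rat left out. In the fits with 1 rat left out, 1458 to 1977 symbols were higher over all rats and 487 to 1025 in the interaction. In rats 17 to 24 the 1 member called higher became 0 with DESeq2's size factors and 0 without a filter (0 to 1 with 1 rat left out), and 1 was called lower with DESeq2 (0 to 1 with 1 rat left out). Between Ctns WT ranges the 1 called lower became 2 with DESeq2's size factors and 3 with upper quartile factors (1 to 3 with 1 rat left out), and 0 to 3 were called higher with 1 rat left out. With 1 animal left out, 0 to 1 members were called higher in mice and 0 to 1 lower between species.

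Without mitochondrially encoded genes in the total, the mean share of reads on members was 1.85% and 1.74% in Ctns KO and Ctns WT mice, 2.40% and 1.87% in rats, 2.11% and 1.94% in rats 17 to 24, and 2.703% and 1.81% in rats 25 to 32. No called value changed sign. Medians near 0 did, since with 1 animal left out the members' median ran from -0.11 to 0.06 between Ctns WT ranges and from -0.01 to 0.05 in mice. In rats 25 to 32 RPS18 passed the threshold in 3 of 5 other settings (adjusted p from 0.0159 to 0.0551) and in 3 of 8 fits with 1 rat left out. RPL5 passed in 1 of 5 (adjusted p from 0.0257 to 0.0927) and in 2 of 8. Between species the members' median was 0.25 with edgeR on the reads and 0.21 with a pseudocount of 0.1, in place of 0.16.

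Upper quartile factors moved the calls over all symbols in rats 25 to 32 from 2534 higher and 2566 lower to 3355 and 1709, and the median of all symbols to 0.08, beside which the members' median was 0.52. Over all rats they gave 2329 higher and 867 lower in place of 1760 and 1420, the range term gave 2266 lower, and the interaction went from 841 and 904 to 1222 and 608. Between Ctns WT ranges they gave 1085 higher and 1443 lower in place of 1386 and 1117. DESeq2 gave 467 lower in rats 17 to 24 in place of 254. In mice the 142 lower became 236 with a filter on low values, 383 with edgeR and 584 with DESeq2, and the 609 higher became 935 with DESeq2. Between species edgeR gave 101 lower in place of 251. The cause of these shifts was not tested.

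No paired analysis was possible because Ctns KO and Ctns WT animals share no replicate number. The number of animals, 4 per group and range, limits the precision, and for members under 10 CPM reads were few as well.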
